A study of Mus musculus with 8 samples.

Results

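The Fc receptors for IgG, their signalling adaptors and the myeloid receptor Sirpa were examined in bulk RNA sequencing of mouse tumors. The set has 9 genes, taken by symbol from the 27179 genes of the deposited table, namely Fcgr1, Fcgr2b, Fcgr3, Fcgr4, Fcer1g, Fcgrt, Tyrobp, Syk and Sirpa. The tumors were grown under the skin of CD2F1 male mice from the C26 colon carcinoma line in its cachexia-inducing form, cxC26, and were removed once the host had lost body weight past the cachexia threshold. In the group cxC26 scr (4 tumors) the implanted cells carried a scrambled guide. In the group cxC26 IL6KOs1 (4 tumors) they were a subclone whose Il6 gene was disrupted by CRISPR/Cas9, so this group rests on 1 clone, and all hosts kept their own Il6. The day on which each sequenced tumor was removed is not given in the sources used here. In the paper's CD2F1 experiments, subclone tumors that led to cachexia were started from more cells than control tumors and took longer to reach it. Where this holds for the sequenced tumors, genotype cannot be told apart from cell number and growth time. Because each library was made from whole tumor, fewer cells of a type and less RNA per cell cannot be told apart.

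Activating Fc receptors bind antibody-coated targets on macrophages, neutrophils, natural killer cells and mast cells. Most of them signal through the common gamma chain (FcRγ, encoded by Fcer1g), whose ITAM motif is phosphorylated by Src family kinases and then binds the kinase Syk. Tyrobp encodes DAP12, a related ITAM adaptor used by receptors such as TREM2. The inhibitory receptor FcγRIIB (Fcgr2b) carries an ITIM and recruits the lipid phosphatase SHIP1, and SIRPα (Sirpa) carries ITIMs that recruit the phosphatases SHP-1 and SHP-2 when it binds CD47 on a neighboring cell. FcRn (Fcgrt) is a different kind of molecule, an MHC class I-like receptor that rescues IgG and albumin from lysosomes in endothelial, epithelial and myeloid cells.

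Myeloid genes often carry sites for the ETS factor PU.1 close to their starts, and Fcgr1 is a textbook target of interferon gamma. The 250 bases before the transcription start, from RefSeq on GRCm38.p6, are shown for 4 genes that mark the range of responses described below, written 5′ to 3′ on the strand of the gene. Fcgr1 lies at chr3:96293970-96294219 (minus strand), Fcgr4 at chr1:171018676-171018925 (plus strand), Fcgr2b at chr1:170976072-170976321 (minus strand) and Fcer1g at chr1:171234350-171234599 (minus strand). Capitals mark GAGGAA on either strand (TTCCTC on the other), the core of a PU.1 site, and the interferon gamma-activated GAS pattern TTCNNNGAA.
Fcgr1: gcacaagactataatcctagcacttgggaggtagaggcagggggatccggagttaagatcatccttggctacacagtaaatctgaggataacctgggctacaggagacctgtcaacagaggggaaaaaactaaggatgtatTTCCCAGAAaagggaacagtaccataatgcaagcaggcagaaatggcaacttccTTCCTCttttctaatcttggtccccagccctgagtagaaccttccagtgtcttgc
Fcgr4: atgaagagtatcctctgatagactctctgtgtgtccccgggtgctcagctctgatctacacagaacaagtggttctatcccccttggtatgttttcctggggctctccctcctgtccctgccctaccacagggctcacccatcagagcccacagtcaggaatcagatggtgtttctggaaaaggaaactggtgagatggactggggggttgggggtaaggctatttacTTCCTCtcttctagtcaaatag
Fcgr2b: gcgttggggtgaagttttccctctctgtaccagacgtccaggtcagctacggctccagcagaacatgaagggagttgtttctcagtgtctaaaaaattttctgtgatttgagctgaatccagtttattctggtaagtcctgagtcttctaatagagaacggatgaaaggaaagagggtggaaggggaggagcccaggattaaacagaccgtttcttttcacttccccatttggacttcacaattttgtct
Fcer1g: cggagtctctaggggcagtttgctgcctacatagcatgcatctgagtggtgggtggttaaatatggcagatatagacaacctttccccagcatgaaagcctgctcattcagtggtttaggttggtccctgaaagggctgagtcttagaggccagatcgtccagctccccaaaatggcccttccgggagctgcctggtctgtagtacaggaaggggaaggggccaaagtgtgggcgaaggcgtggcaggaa
In Fcgr1 the GAS match began 109 bases before the start and the PU.1 core 55 bases before it, without overlap, and in Fcgr4 the PU.1 core began 22 bases before the start. Neither pattern occurred in these windows of Fcgr2b and Fcer1g. Of the 7 genes of the set with a promoter entry, 3 held the PU.1 core at their first listed start (Fcgr1, Fcgr3 and Fcgr4), against 23.1% of all 27025 promoter windows of this length. Fcgr1 was the 1 of the 7 with a GAS match, against 7.18% of all windows. Tyrobp and Sirpa had no entry.

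Reads counted on the deposited genes numbered 14158989 to 17048062 in cxC26 scr and 14222772 to 16232176 in cxC26 IL6KOs1. For Il6, the targeted gene, cxC26 scr tumors gave 356, 326, 376 and 438 reads, and cxC26 IL6KOs1 tumors gave 64, 56, 86 and 59. Its log2 fold change was -2.45 (limma, adjusted p = 1.76e-06). The epithelial markers Krt18 and Cdh1 were low in cxC26 scr, at 21 to 30 and 17 to 37 reads, although the line is a carcinoma. Tumor 1 of cxC26 IL6KOs1 stood apart. It had the highest value of 8 of the 9 genes and of 9 of 10 macrophage markers, so results for the 9 genes are also given without it.

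Levels are deposited log2 CPM (log2 of counts scaled to library size), listed in the order of the replicate numbers, and differences are cxC26 IL6KOs1 minus cxC26 scr. Adjusted p-values come from limma over the 13262 genes that reached 1 CPM in 4 or more tumors, with Benjamini-Hochberg adjustment and a threshold of 0.05. All 9 genes were above 1 CPM in every tumor, so none passed this filter only through the group where it was higher. By this test 7 of the 9 genes were higher in cxC26 IL6KOs1, where 19.1% of all genes tested were, out of 39.8% that passed in either direction. All 9 differences were above 0, with a median of 0.84 on the log2 scale against -0.00 over all genes. Without cxC26 IL6KOs1 tumor 1, 8 of the 9 were higher, against 18.3% of all genes.

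**Figure D1:**
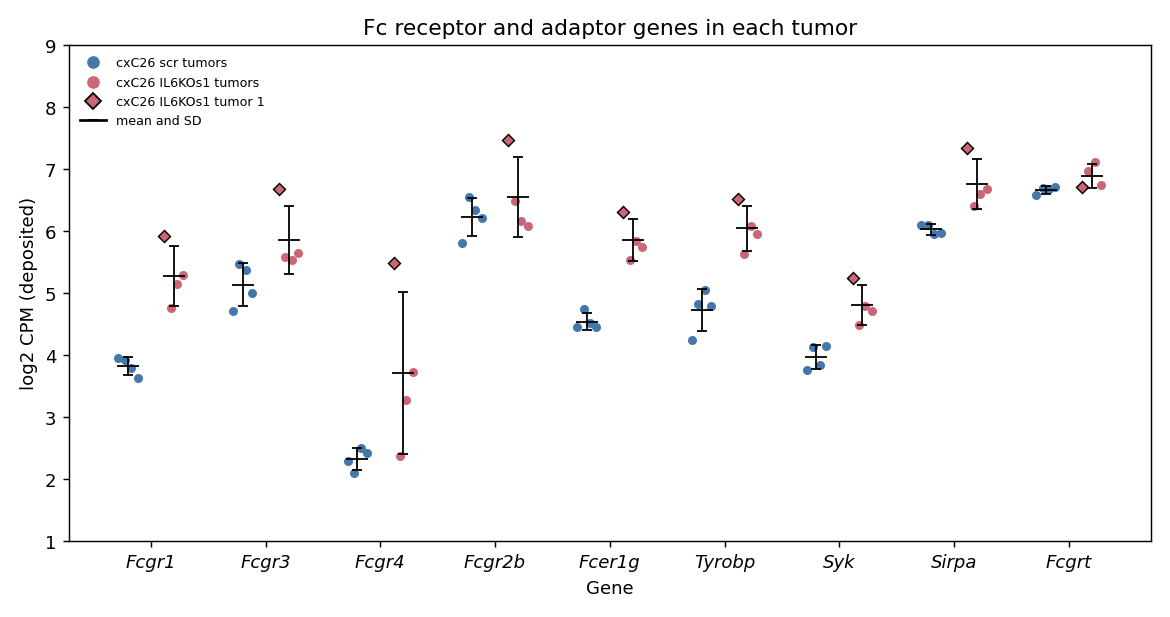
Log2 CPM of the 9 genes in each tumor, with points for tumors and bars for mean and SD of 4 tumors. Fcgr1, Fcer1g, Tyrobp, Syk and Sirpa separate the groups, Fcgr2b and Fcgr4 overlap, and cxC26 IL6KOs1 tumor 1 (diamonds) is the highest point for every gene but Fcgrt.

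Among the antibody-binding chains, Fcgr1 was higher in every cxC26 IL6KOs1 tumor. It encodes FcγRI, the high-affinity IgG receptor of monocytes and macrophages, at chr3:96282909-96293969. Its log2 CPM was 3.96, 3.93, 3.79 and 3.64 in cxC26 scr and 5.93, 4.76, 5.15 and 5.29 in cxC26 IL6KOs1. The groups did not meet, with a gap wider than the spread within cxC26 scr. The means were 3.83 ± 0.15 and 5.28 ± 0.49 (SD, n = 4 each), and the difference of 1.45 (SE 0.203, 2.74-fold) passed the test (limma, adjusted p = 0.000255). Without tumor 1 it was 1.24 (limma, adjusted p = 7.02e-05).

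The low-affinity activating receptors rose less evenly. Fcgr3 (chr1:171051169-171065915), the FcγRIII chain shared by macrophages, natural killer cells and mast cells, was at 4.72, 5.47, 5.38 and 5.0 in cxC26 scr and 6.68, 5.59, 5.54 and 5.65 in cxC26 IL6KOs1. The groups did not overlap, but 3 of the cxC26 IL6KOs1 tumors lay just above the highest cxC26 scr tumors. The log2 difference was 0.72 (SE 0.243, limma, adjusted p = 0.0342), and 0.45 without tumor 1 (limma, adjusted p = 0.0436). The call was lost without cxC26 scr tumor 1 (limma, adjusted p = 0.0959) and without cxC26 scr tumor 4 (limma, adjusted p = 0.0847). Of the 50-base windows of Fcgr3 transcripts, 12.8% also occur in Fcgr2b, so reads from those stretches cannot be assigned to either gene with certainty.

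Fcgr4 (chr1:171018926-171029761) encodes FcγRIV, an activating receptor of mouse monocytes, macrophages and neutrophils that binds IgG2a and IgG2b. Reads numbered 81, 69, 80 and 82 in cxC26 scr and 728, 71, 153 and 192 in cxC26 IL6KOs1, which gave log2 CPM of 2.29, 2.10, 2.50 and 2.42 against 5.49, 2.37, 3.28 and 3.73. The cxC26 IL6KOs1 tumors spanned 3.12 on the log2 scale, and tumor 2 lay inside the cxC26 scr range. The difference of 1.39 (SE 0.49) was just past the threshold (limma, adjusted p = 0.0411), while the two-sided exact permutation test over the 70 splits of the tumors gave p = 0.0857. Without tumor 1 the difference was 0.80 (limma, adjusted p = 0.0367). Leaving out any 1 cxC26 scr tumor, or cxC26 IL6KOs1 tumor 3 or 4, ended the call, with limma adjusted p of 0.0922 at most.

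Fcgr2b (chr1:170960558-170976071), the single inhibitory Fcγ receptor, did not pass the test. Values were 5.81, 6.55, 6.35 and 6.22 in cxC26 scr and 7.48, 6.49, 6.17 and 6.08 in cxC26 IL6KOs1. Apart from tumor 1, the cxC26 IL6KOs1 tumors lay within the cxC26 scr range. The difference was 0.33 (95% interval -0.25 to 0.91, limma, adjusted p = 0.351) and 0.02 without tumor 1 (limma, adjusted p = 0.945). The interval reaches past the difference measured for Syk, so these data do not show that Fcgr2b was level. Its exons share 155 bases with Gm38204 on the opposite strand, and whether counting used strand is not given in the sources used here.

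The adaptors moved by nearly equal amounts. Fcer1g (chr1:171229572-171234349) was at 4.45, 4.74, 4.52 and 4.46 in cxC26 scr and 6.32, 5.53, 5.85 and 5.75 in cxC26 IL6KOs1. Tyrobp (chr7:30413782-30417582) was at 4.25, 4.83, 5.06 and 4.79 in cxC26 scr and 6.52, 5.64, 6.09 and 5.96 in cxC26 IL6KOs1. Neither gene overlapped between the groups, and within cxC26 IL6KOs1 both genes ran from tumor 1 at the top to tumor 2 at the bottom. The log2 difference was 1.32 for Fcer1g (SE 0.151, 2.5-fold, limma, adjusted p = 6.84e-05) and 1.32 for Tyrobp (SE 0.195, 2.5-fold, limma, adjusted p = 0.000365). Without tumor 1 each difference was 1.17.

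Syk (chr13:52582610-52648792), the kinase that docks on phosphorylated ITAMs, was at 3.76, 4.13, 3.85 and 4.15 in cxC26 scr and 5.25, 4.49, 4.80 and 4.72 in cxC26 IL6KOs1. The groups did not overlap, and the log2 difference was 0.84 (SE 0.163, limma, adjusted p = 0.00181). It was 0.70 without tumor 1 (limma, adjusted p = 0.00223). Sirpa (chr2:129591042-129632228) was at 6.11, 6.11, 5.95 and 5.97 in cxC26 scr and 7.34, 6.41, 6.61 and 6.68 in cxC26 IL6KOs1. Its groups were also apart, with a difference of 0.72 (SE 0.163, limma, adjusted p = 0.00468) that was 0.53 without tumor 1 (limma, adjusted p = 0.00137).

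Fcgrt (chr7:45092993-45103822), alone in the set as a receptor for IgG recycling, did not pass the test with all 8 tumors. Its values were 6.58, 6.70, 6.69 and 6.71 in cxC26 scr and 6.72, 6.98, 7.12 and 6.75 in cxC26 IL6KOs1. The ranges just missed each other, and the difference of 0.22 (95% interval 0.01 to 0.44, not adjusted for the number of genes) did not pass (limma, adjusted p = 0.0933). In contrast to the other genes its value in tumor 1 was the lowest of the cxC26 IL6KOs1 tumors, and without that tumor the difference was 0.28 and passed (limma, adjusted p = 0.0438).

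Among the 9 genes, 7 had all cxC26 IL6KOs1 tumors above all cxC26 scr tumors, against 17.8% of all genes tested. They were Fcgr1, Fcgr3, Fcer1g, Fcgrt, Tyrobp, Syk and Sirpa, and for each the exact permutation test gave p = 0.0286 (two-sided), the smallest that 4 against 4 tumors allow. Without tumor 1 the number was again 7, against 20.6%. Most differences were moderate, since 4 of the 9 passed the test with at least a 2-fold rise, namely Fcgr1, Fcgr4, Fcer1g and Tyrobp, against 6.25% of all genes.

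Several of the genes lie on chromosomes whose genes were, on balance, lower. Fcgr2b, Fcgr3, Fcgr4 and Fcer1g lie on chromosome 1, where the median log2 difference over 758 genes was -0.34 and 24.7% of genes had a difference above 0. Fcgrt and Tyrobp lie on chromosome 7, with a median of -0.27 over 992 genes. When each chromosome's median was set to the same value, Fcgrt passed the test with a difference of 0.50 (limma, adjusted p = 0.00401). The part of these chromosome shifts in the values of the 6 genes was not tested.

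**Figure D2:**
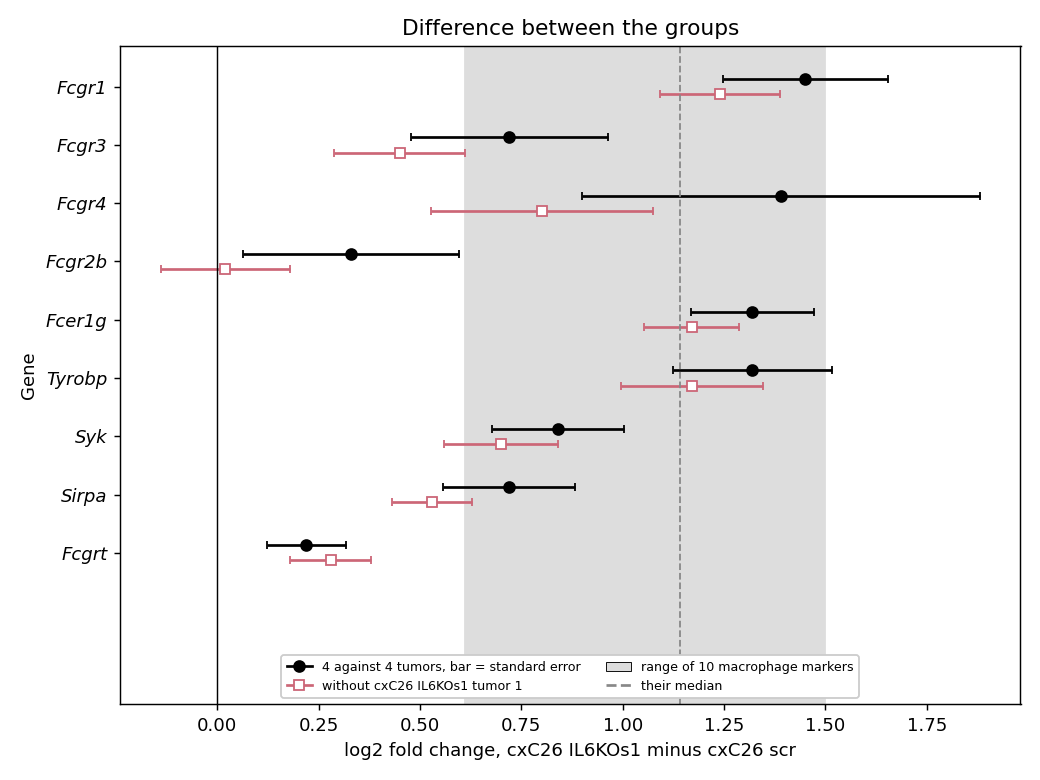
Log2 difference between the groups for each gene with its standard error, for 4 against 4 tumors (circles) and without cxC26 IL6KOs1 tumor 1 (squares). The shaded band is the range of 10 macrophage markers for 4 against 4 tumors, 0.61 to 1.5, with their median of 1.14 dashed. The circles of Fcgr2b and Fcgrt lie below this band. Their squares and those of Fcgr3 (0.45) and Sirpa (0.53) also do, but the band was not redrawn without tumor 1. The difference in the mean log2 CPM of the markers was 1.06 with tumor 1 and 0.87 without it. The squares therefore have no matching band.

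Per kilobase of exon, merged over all annotated transcripts of a gene, levels between genes can be set roughly side by side. For Fcgr2b this length is 5.79 kb, though its longest transcript holds 3495 windows of 50 bases. For Syk it is 9.36 kb against 5314 windows, and for Fcgr1 2.59 kb against 2540 windows. The order between genes below therefore depends on this choice of length. In cxC26 scr the medians in CPM per kilobase were 49.4 for Fcgrt, 42 for Tyrobp, 25.7 for Fcer1g, 21.2 for Fcgr3, 13.5 for Fcgr2b, 13.4 for Sirpa, 5.63 for Fcgr1, 4.08 for Fcgr4 and 1.7 for Syk. In cxC26 IL6KOs1 they were 97.8 for Tyrobp, 63.8 for Fcer1g, 55.7 for Fcgrt, 28.3 for Fcgr3, 20.4 for Sirpa, 14.4 for Fcgr1, 14 for Fcgr2b, 9.17 for Fcgr4 and 2.9 for Syk. The order thus began with Fcgrt in cxC26 scr and with the adaptors in cxC26 IL6KOs1. Neighbors in the order often overlapped. In cxC26 scr Fcgr2b spanned 9.66 to 16.2 CPM per kilobase, a range that holds the whole of Sirpa (12.6 to 14.1). In cxC26 IL6KOs1 the ranges of Fcgr1 (10.5 to 23.6) and Fcgr2b (11.7 to 30.9) overlapped, whereas in cxC26 scr Fcgr1 (4.81 to 6.03) lay below Fcgr2b in every tumor.

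The ratio of the inhibitory to the activating receptors was lower in cxC26 IL6KOs1 for the FcγRI and FcγRIII chains. The log2 ratio of Fcgr2b to Fcgr1 was 1.84, 2.61, 2.55 and 2.58 in cxC26 scr and 1.55, 1.72, 1.02 and 0.79 in cxC26 IL6KOs1. The ranges did not meet, and the means of 2.40 ± 0.37 and 1.27 ± 0.44 (SD, n = 4 each) differed by -1.13. Fcgr2b lies on chromosome 1 and Fcgr1 on chromosome 3, where the median log2 differences were -0.34 and 0.18. With chromosome medians set equal, Fcgr2b differed by 0.66 and Fcgr1 by 1.28, closer together than 0.33 and 1.45 in the reported fit. The part of the chromosome shifts in this ratio was not tested. The log2 ratio of Fcgr2b to Fcgr3 was 1.09, 1.07, 0.97 and 1.21 in cxC26 scr and 0.81, 0.90, 0.63 and 0.43 in cxC26 IL6KOs1, a difference of -0.39 between the means. Tumor 1, with the highest level of every chain, fell within the range of the other cxC26 IL6KOs1 tumors in both ratios. For Fcgr2b to Fcgr4 the ranges overlapped, at 3.52 to 4.44 in cxC26 scr and 2.00 to 4.12 in cxC26 IL6KOs1. These ratios use the same values as the tests above and were given no test of their own.

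Measured against the shared chain Fcer1g, Fcgr3 was lower by 0.60 in cxC26 IL6KOs1 on the log2 scale, with overlapping ranges (0.27 to 0.86 and -0.30 to 0.35). Fcgr1 differed from Fcer1g by -0.71 ± 0.15 in cxC26 scr and -0.58 ± 0.18 in cxC26 IL6KOs1 (SD, n = 4 each), so receptor and adaptor rose side by side. The log2 ratio of Tyrobp to Fcer1g averaged 0.19 in each group, with an SD of 0.32 in cxC26 scr and 0.06 in cxC26 IL6KOs1.

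**Figure D3:**
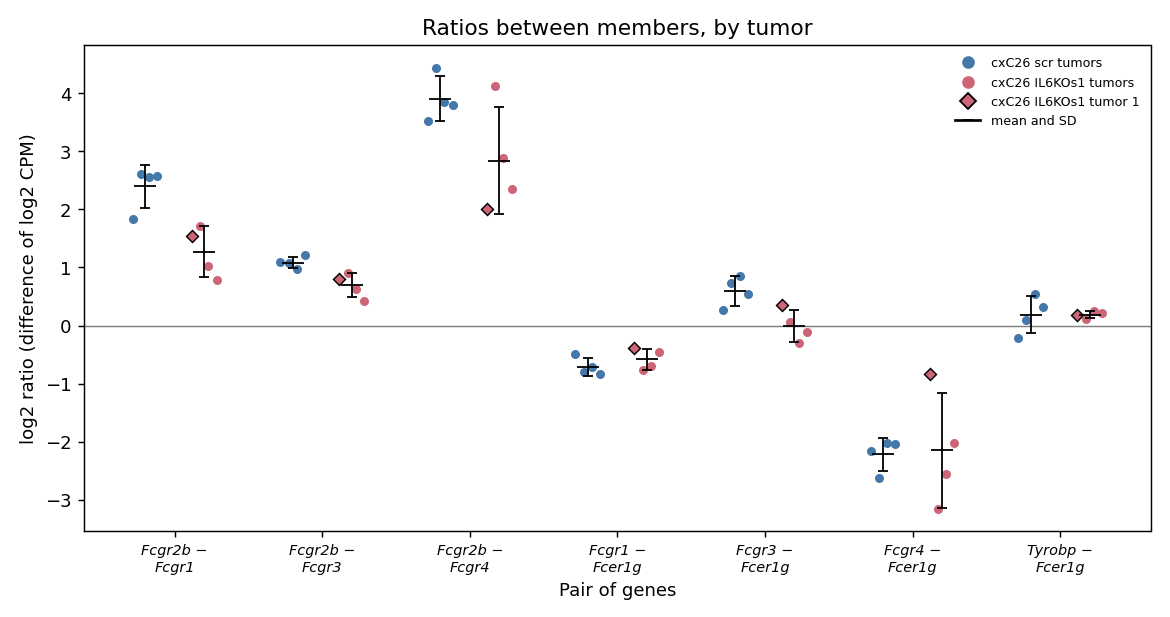
Log2 ratios between pairs of the genes in each tumor (difference of log2 CPM), with bars for mean and SD of 4 tumors. The ratios of Fcgr2b to Fcgr1 and to Fcgr3 are lower in every cxC26 IL6KOs1 tumor than in any cxC26 scr tumor, and the other 5 ratios overlap.

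Macrophage markers moved with the set. All 10 markers (among them Csf1r, Cd68, Adgre1, Lyz2 and Ctss) were higher in cxC26 IL6KOs1, with a median log2 difference of 1.14. Their mean log2 CPM was 5.60 to 5.74 in cxC26 scr, 7.33 in cxC26 IL6KOs1 tumor 1 and 6.39 to 6.65 in the other cxC26 IL6KOs1 tumors. Of 8 pan-leukocyte markers, 7 were higher, with a median of 1.00.

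Each gene was therefore also expressed relative to the mean of the 10 markers in the same tumor, which lowers every difference by 1.06. On this scale 2 of the 9 genes were lower in cxC26 IL6KOs1, against 83% of all genes, and none was higher, either at an adjusted p under 0.05 or at an unadjusted one, against 2.03% of all genes. Fcgr2b was at 0.20, 0.81, 0.61 and 0.52 in cxC26 scr and 0.15, 0.10, -0.47 and -0.57 in cxC26 IL6KOs1, so the groups were barely apart. The difference was -0.73 (SE 0.248, limma, adjusted p = 0.00431), and with chromosome medians set equal it was -0.34 and no longer called (limma, adjusted p = 0.178). Fcgrt was at 0.96 to 1.02 in cxC26 scr and -0.61 to 0.59 in cxC26 IL6KOs1, a difference of -0.84 (SE 0.249, limma, adjusted p = 0.00119).

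The remaining 7 genes did not pass on this scale with all 8 tumors. Without cxC26 IL6KOs1 tumor 1, Fcgr1 and Fcer1g were higher by 0.37 and 0.30 (limma, adjusted p of 0.0294 and 0.034), and Fcgr3 and Sirpa were lower, at -0.42 and -0.34 (limma, adjusted p of 0.0263 and 0.0168). Several of the genes had become nearly constant over the cxC26 IL6KOs1 tumors. Sirpa spanned 0.93 between these tumors in log2 CPM and 0.06 relative to the markers, at 0.01, 0.02, -0.03 and 0.03. The span of Fcer1g went from 0.79 to 0.22, of Fcgr1 from 1.17 to 0.27, of Tyrobp from 0.88 to 0.27 and of Syk from 0.76 to 0.24. Fcgr4 still spanned 2.18.

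In this fit moderation gave nearly every gene the same standard error (median 0.255), which for Sirpa was larger than the spread of its own values. Sirpa was lower in every cxC26 IL6KOs1 tumor by 0.34 on average and Fcgr1 higher by 0.39, with its nearest tumors at -1.64 and -1.63, each with an exact permutation p of 0.0286. With each gene's own variance, an alternative chosen after the data were seen, 3 genes were lower, namely Fcgr2b, Fcgrt and Sirpa (limma without moderation, adjusted p of 0.0256, 0.0306 and 0.00581), against 76.8% of all genes. Fcgr1 and Fcer1g were then higher (limma without moderation, adjusted p of 0.0169 and 0.0150), against 1.54% of all genes.

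**Figure D4:**
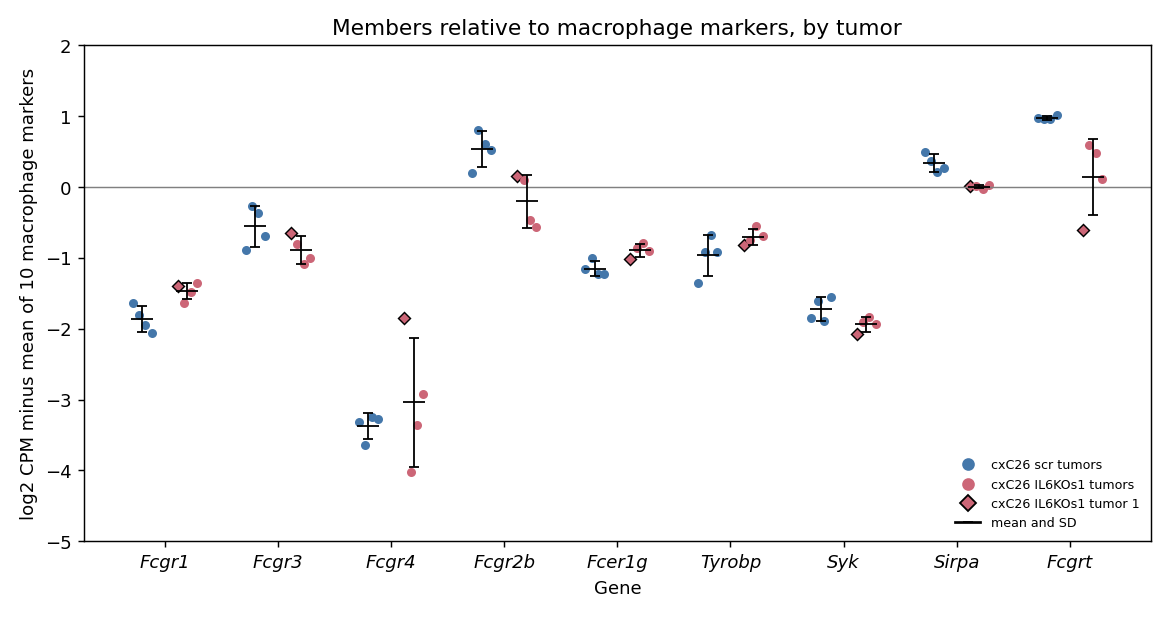
Log2 CPM of each gene minus the mean of 10 macrophage markers in the same tumor, with bars for mean and SD of 4 tumors. Sirpa, Syk, Fcer1g, Fcgr1 and Tyrobp lie close together over the cxC26 IL6KOs1 tumors, and Fcgr4 remains spread over 2.18. Fcgr2b, Fcgrt and Sirpa are lower in every cxC26 IL6KOs1 tumor than in any cxC26 scr tumor, and Fcgr1 is just higher. Of these genes, Fcgr2b and Fcgrt passed the limma test with all tumors.

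Other cell types that use these receptors were checked by their markers. Natural killer cells express Fcgr3, Fcer1g and Tyrobp, and 1 of their 7 markers passed the filter, Eomes, with a difference of -0.43 that did not pass the test (limma, adjusted p = 0.442). Klra4 and Klra8 had at most 1 read in any tumor, and the 4 other markers had few reads, most in cxC26 IL6KOs1 tumor 1, with Ncr1 at 0, 5, 2 and 0 reads in cxC26 scr and 55, 15, 3 and 5 in cxC26 IL6KOs1, and Gzma at 6, 8, 3 and 2 against 64, 16, 7 and 13. Mast cells express Fcer1g, Fcgr3 and Syk, and all 7 mast cell markers were higher, with a median log2 difference of 3.17. Their mean log2 CPM was 0.61 to 1.11 in cxC26 scr, 2.16 in cxC26 IL6KOs1 tumor 1 and 4.44 to 4.51 in the other 3. Tumor 1 was thus lowest of its group for mast cell markers and highest for Fcer1g, Fcgr3 and Syk. Of 9 neutrophil markers 4 were tested, with S100a8 higher by 0.97, Mmp8 lower by a log2 difference of -1.34, and a mean log2 CPM over the 4 of 1.17 to 2.29 in cxC26 scr and 1.21 to 2.40 in cxC26 IL6KOs1. Among the untested neutrophil markers, Ngp had 1, 1, 2 and 1 reads in cxC26 scr and 15, 13, 39 and 14 in cxC26 IL6KOs1. Camp had 3, 3, 0 and 3 reads against 13, 8, 16 and 6. Cxcr2 and Retnlg overlapped between the groups, and Ly6g had at most 2 reads in any tumor. For B cells and dendritic cells 1 of 7 markers each was tested, Cd79a, which did not pass (limma, adjusted p = 0.693), and Zbtb46, which fell by 2.42 on the log2 scale. Untested markers of dendritic cells did not all share that direction, with Ccr7 at 9, 11, 9 and 4 reads in cxC26 scr and 56, 23, 13 and 18 in cxC26 IL6KOs1, and Xcr1 at 5, 4, 2 and 2 against 17, 6, 9 and 10. Of the untested B cell markers, Cd79b had 6 to 9 reads in cxC26 scr and 62, 10, 40 and 33 in cxC26 IL6KOs1.

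Endothelial cells are a main site of Fcgrt, and 6 of their 7 markers did not pass, with a median log2 difference of -0.10 and Vwf lower. Of 6 fibroblast markers 3 were lower and 1 was higher. Krt18 and Cdh1, the 2 of 6 epithelial markers tested, were higher.

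Interferon gamma response genes, among which Fcgr1 is often counted, had 8 of 10 higher with a median of 1.77. Their mean log2 CPM was 2.82 to 3.55 in cxC26 scr, 6.76 in tumor 1 and 3.99 to 4.51 in the other cxC26 IL6KOs1 tumors. Cxcl9 had 7 to 24 reads in cxC26 scr and 3038, 23, 50 and 67 in cxC26 IL6KOs1. The part of macrophage, mast cell and interferon gamma response genes in the values of the 9 genes was not tested beyond the subtraction above.

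RNA of the IgG heavy chain constant genes, which encode part of the ligands of these receptors, was unevenly present. IgG protein was not measured in these data. Ighg1, the IgG1 heavy chain constant gene, had 3, 5, 7 and 5 reads in cxC26 scr and 18300, 434, 3949 and 442 in cxC26 IL6KOs1, a log2 difference of 8.56 (SE 0.937, limma, adjusted p = 5.24e-05) that was 7.51 without tumor 1. Ighg2b had 1 to 4 reads in cxC26 scr and 1720, 5, 51 and 66 in cxC26 IL6KOs1. Ighg2c had 0 to 5 reads in cxC26 scr and 708, 13, 102 and 19 in cxC26 IL6KOs1. These constant regions resemble each other, so reads may be split between them. Ighg2a is not among the deposited genes, so any reads from it could not be counted under that name. Ighg3 had 0 to 2 reads in cxC26 scr and 31, 18, 1 and 0 in cxC26 IL6KOs1. Tumor 1 led in each, as it did for Fcgr1 and Fcgr4, and the order of the other tumors differed between these genes.

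Other Fc receptors mostly had few reads. Of 11, the cytosolic antibody receptor Trim21 alone passed the filter, and it was higher by 0.52 (limma, adjusted p = 0.0189). Fcrls was not among the deposited genes. Fcrl5 had 10, 1, 12 and 7 reads in cxC26 scr and 13, 3, 44 and 71 in cxC26 IL6KOs1. The IgE receptor chains that pair with FcRγ on mast cells followed the mast cell markers. Fcer1a had 2, 3, 0 and 5 reads in cxC26 scr and 4, 36, 47 and 32 in cxC26 IL6KOs1, and Ms4a2 had 0 reads in every cxC26 scr tumor and 3, 13, 9 and 14 in cxC26 IL6KOs1.

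Among receptors that pair with FcRγ or DAP12, 20 of 24 were tested, 13 were higher and 7 did not pass, with a median log2 difference of 1.18. Trem2, the lipid-sensing DAP12 partner of macrophages, was higher by 1.31 (SE 0.119, limma, adjusted p = 1.44e-05). The pattern was not uniform. Clec4n (dectin-2), an FcRγ partner that recognizes fungal mannans, was at 474, 720, 605 and 584 reads in cxC26 scr and 1216, 459, 407 and 403 in cxC26 IL6KOs1, a log2 difference of -0.05 (95% interval -0.67 to 0.57). Without cxC26 IL6KOs1 tumor 1, Clec4n differed by -0.39 and did not pass (limma, adjusted p = 0.0643). Cd300lb differed by -0.19 (limma, adjusted p = 0.317). The largest rises were in genes of few reads, Klrk1 at 1 to 5 reads in cxC26 scr and 24 to 113 in cxC26 IL6KOs1, and Oscar, an FcRγ partner on osteoclasts and myeloid cells, at 4 to 11 and 30 to 86 reads.

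Downstream of ITAM receptors, 21 of 30 kinases and effectors were higher and 4 were lower, with a median of 1.05. The higher genes included the kinases Lyn (0.83) and Btk (1.68), the exchange factor Vav1 (1.20), the phospholipase Plcg2 (1.22), the adaptor Lcp2 (1.43) and the GTPase Rac2 (1.86). The kinase Src differed by -0.19 and did not pass with all 8 tumors (limma, adjusted p = 0.265). Without cxC26 IL6KOs1 tumor 1 it was lower, at -0.32 (limma, adjusted p = 0.0315). Blnk, the adaptor best known from B cells, had 16 to 31 reads in cxC26 scr and 257 to 575 in cxC26 IL6KOs1, a log2 difference of 4.20 (SE 0.256, limma, adjusted p = 1.05e-06). The 4 lower genes were Plcg1 (-0.92), Vav2 (-0.39), Vav3 (-0.84) and Pik3r1 (-0.79).

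Genes of the inhibitory arm were mostly higher as well. Of 20 ITIM receptors and phosphatases tested, 15 were higher and 3 were lower, with a median of 1.10. Inpp5d, which encodes the SHIP1 that FcγRIIB recruits, was higher by 0.99 (SE 0.155, limma, adjusted p = 0.000514), and Ptpn6, which encodes the SHP-1 that SIRPα recruits, by 1.22 (SE 0.211, limma, adjusted p = 0.000935). Pirb and Lilrb4a, myeloid ITIM receptors, were higher by 1.23 and 1.11. The lower genes of this list were Inppl1 (SHIP2, -0.49) and Ptpn11 (SHP-2, -0.27), and Cd33 (-0.95). Whether mouse Cd33 acts through an ITIM was not examined here. Clec12a, an ITIM receptor of myeloid cells, had 4 to 18 reads in cxC26 scr and 184 to 681 in cxC26 IL6KOs1.

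Of 10 symbols listed around CD47 and SIRPα, adaptors inside the cell as well as ligands, 6 were tested and 2 were higher. Cd47 itself differed by -0.16 (SE 0.117, limma, adjusted p = 0.293), against the rise of 0.72 in Sirpa. The higher genes were Thbs1, a matrix ligand of CD47, by 1.45 and Fyb, an adaptor of hematopoietic cells, by 1.12. Of 15 phagocyte oxidase and phagocytosis genes tested, 10 were higher and 3 were lower, with a median of 1.10. Ncf1 and Ncf4, cytosolic subunits of the oxidase, were higher by 1.32 and 1.07, and Itgam and Itgb2, the chains of complement receptor CR3, by 1.36 and 1.45. The lower genes were Itgax by a log2 difference of -1.89, and the receptors for apoptotic cells Mertk (-0.36) and Axl (-0.36).

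Genes were also ranked by how closely they followed a member over the 8 tumors once the group means were removed. This is a description over 8 tumors that share their libraries and depth between genes, and cxC26 IL6KOs1 tumor 1 is among them. For Fcer1g the closest were Cd300c2 (r = 0.981), an FcRγ-pairing receptor, Vipas39 (r = 0.979) and Rasa4 (r = 0.973). For Tyrobp they were Rbbp9 (r = 0.990), Ppie (r = 0.986) and Ogfrl1 (r = 0.982), and for Fcgr4 they were Cybb (r = 0.993), the catalytic subunit of the phagocyte oxidase, Tifab (r = 0.992) and Slc43a2 (r = 0.984). Among the members, the 28 pairs without Fcgrt had a median r of 0.78 (0.57 to 0.97), and the 8 pairs with Fcgrt had a median of -0.42 (-0.68 to -0.14).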

How the data were processed

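Tumor RNA was sequenced by a service laboratory from poly(A)-enriched libraries. From the reads of 8 tumors the authors made and deposited log2 CPM with limma-voom, after trimming (Trimmomatic), alignment to mm10 (HISAT2) and counting per gene (featureCounts). The submitters' processing notes also name bcl2fastq 2.17. Other versions, the annotation and the strand setting are not given in the sources used here. These log2 values carry an offset of 0.5 reads, and inverting it gave whole reads (within 0.05 of a read). The reads were used for depth, for genes given by reads and for the alternative fit with voom weights.

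Groups were taken from the sample titles. Nothing states whether the tumors of a group came from separate experiments, so p-values measure the spread between these tumors. Differences were tested in R 4.3.3 with limma 3.58.1 (eBayes with a mean-variance trend) over 13262 of 27179 genes, with Benjamini-Hochberg adjustment, and exact permutation tests used scipy 1.17.1. The script was tested on simulated data. Members and gene lists were chosen with earlier results of these data known. Genes named beside the members were the 2 of highest mean level and the 2 of largest called change in each list. Trem2, Lyn, Btk, Vav1, Plcg2, Lcp2, Plcg1, Vav2, Vav3, Inpp5d, Ptpn6, Pirb, Lilrb4a, Cd33, Cd47, Ncf1, Ncf4, Itgam and Mertk were named after their values were seen, as were list genes given by reads alone. Positions and promoters came from RefSeq (GRCm38.p6), exon lengths from GENCODE M21. The likeness ranking kept genes averaging 3 log2 CPM or more. Alternatives covered filters, scaling, variance models, the reference markers and leaving out each tumor. Some genes of the lists are not reported here by name.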

Additional observations from a re-analysis of the deposited data

Results flagged for a closer look

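Within groups of 4 tumors, 5 of the 76 sets of values examined had a single tumor set far from the other 3, with a gap above Dixon's 95% critical value. Chance alone gives about 1 in 20, or 3.8. Fcgr3 was at 6.68 log2 CPM in cxC26 IL6KOs1 tumor 1 and at 5.54 to 5.65 in the others. In cxC26 scr tumor 1, Fcgrt was at 6.58 against 6.69 to 6.71 log2 CPM. The same tumor had a log2 ratio of Fcgr2b to Fcgr1 of 1.84, against 2.55 to 2.61 in the rest of its group. The mean log2 CPM of the 7 mast cell markers was 2.16 in cxC26 IL6KOs1 tumor 1 and 4.44 to 4.51 in the others. Il6 was at 2.46 log2 CPM in cxC26 IL6KOs1 tumor 3 and at 1.99 to 2.04 in its group otherwise.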

How the results depend on the processing

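All 9 members kept a positive difference under every alternative fit, and Fcgr1, Fcer1g, Tyrobp, Syk and Sirpa passed an adjusted p of 0.05 in each of them. The number of members higher, 7 in the reported fit, was 4 with at least a 2-fold change and 5 to 8 when a tumor was left out. Over all genes 2529 were higher and 2748 lower, which became 829 and 521 with at least a 2-fold change and 1528 and 1655 at an adjusted p under 0.01. Leaving out a tumor gave 2023 to 2540 genes higher and 2193 to 2674 lower. Fcgr3 lost its call without a filter on low values (adjusted p = 0.117), with no variance trend (0.0725) and without moderation (0.137). Fcgr4 lost its call in the same settings (0.139, 0.0809 and 0.156), with quantile normalization (0.0567) and with voom weights (0.0753). The cause of these losses was not tested.

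Relative to the macrophage markers, 0 members were higher and 2 lower in the reported fit. These became 3 and 1 with chromosome medians re-centred, where Fcgr2b was no longer called (adjusted p = 0.178) and Fcgr4, Fcer1g and Tyrobp were higher. With Csf1r alone as the reference 5 were lower, and without moderation 2 were higher. Leaving out a tumor gave 0 to 2 higher and 2 to 4 lower, with both upper values reached without cxC26 IL6KOs1 tumor 1. Over all genes, 2.03% were higher and 83% lower in the reported fit on this scale, and 1.54% and 76.8% without moderation. Shares over all genes in the other settings were not counted, so these member counts are not read as results about the members.

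The groups use the same replicate numbers for different mice, and the deviations of same-numbered tumors correlated by only -0.0593, 0.057, 0.017 and -0.0587. With the replicate number as a block 2477 genes were higher and 2688 lower, 6 members were higher and Fcgr3 was not called (adjusted p = 0.0645). The standard error of Fcgr4 (0.49) goes with the SD of 1.31 between cxC26 IL6KOs1 tumors, while for genes of a few reads per tumor, such as Ncr1 or Ms4a2, depth sets the precision.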
